A study of Mus musculus with 2 samples.

Results

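The collagen genes were taken as every gene of the RNA table whose symbol had the form Col, a number, a and a number, which gave 44 of 32293 genes. They comprised 11 fibrillar chains, 9 FACIT chains (fibril-associated collagens with interrupted triple helices), 6 basement membrane chains, 6 beaded filament chains of type VI, 3 short chains, 4 transmembrane chains, 2 multiplexins, the anchoring fibril chain and 2 others. The source was femur marrow at postnatal day 21 of mice carrying Prrx1-cre and the R26R-tdTomato reporter, from which red cells were sorted, and 10x Multiome read RNA and accessible chromatin of each nucleus. Prrx1-cre is active in the limb mesenchyme, so that the red label marked descendants of that lineage, and no group without Cre or without the label was part of the experiment. Males and females of a litter were pooled in 1 RNA library and 1 ATAC library, so nuclei were not replicates and no p-value was computed. Intervals are exact 95% Poisson intervals, or exact Clopper-Pearson intervals for shares, and they cover counting error only.

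Collagens are trimers of chains that wind into a triple helix. Type I, the main fibril of bone, tendon and skin, is built from Col1a1 and Col1a2, and osteoblasts lay it down as the matrix that is later mineralised. Cartilage is built on type II fibrils with type XI in their core and type IX on their surface, and hypertrophic chondrocytes switch to the short-chain type X. Types III, V, XII and XIV accompany type I in soft fibrous tissue, type IV forms the sheet of basement membranes around vessels, and type VI forms a beaded network close to cells.

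The deposited table held 728634 barcodes with 35460453 RNA UMIs and 191398837 ATAC counts over 203545 peaks. A barcode was kept as a nucleus from 500 UMIs and 1000 ATAC counts upward, if no more than 10% of UMIs were mitochondrial. The last limit removed 3236 of 4663 candidates (69.4%), and 1411 nuclei were kept, with medians of 1544 UMIs and 23964 ATAC counts. Nuclei were put into gates by marker lists that held 0 collagen genes: osteoblast (31 nuclei), osteocyte (19), chondrocyte (34), fibrous (20, tenocyte, synovial or periosteal markers), mural (28, pericyte and smooth muscle markers) and reticular (231, Cxcl12 and Lepr among its markers), with 173 blood-gated nuclei set aside. A further 96 nuclei passed a low requirement for both the reticular and the osteoblast list (osteoblast-reticular gate). Another 250 passed only the low osteoblast requirement (osteoblast-low gate). A gate is a range of marker levels and not a cell type: 54 nuclei lay just above and 27 just below the reticular threshold, and 9 and 18 beside the osteoblast threshold. Levels are given in CPM, the counts of a gene scaled to a common total of 1e+06 per gate. Each list was higher in its own gate than in the blood gates: 28911 against 853 CPM for osteoblast markers, 15969 against 570 CPM for chondrocyte markers, and 10275 against 575 CPM for reticular markers. The gates were set on these same markers, so this difference was built in and is no check of the gates. Erythroid markers were at 121 to 548 CPM in the 6 stromal gates, against 17278 CPM in the blood gates, and their part in the collagen values was not tested. The tdTomato transcript was at 240 to 572 CPM in the stromal gates, against 47.1 CPM in the blood gates.

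Collagen RNA was found in every kind of barcode, so the background of free RNA came first. In low-count barcodes (100 to 400 UMIs and fewer than 500 ATAC counts, 62603 barcodes, median 229 UMIs), collagens were 8.43% of the UMIs, with Col1a1 at 44699 CPM, Col1a2 at 23751 CPM, Col2a1 at 4563 CPM and Col10a1 at 1956 CPM. Blood-gated nuclei, which should lack these transcripts, held 37.8 collagen UMIs each, or 1.62% of their UMIs. The share was 18.3% in the osteoblast gate, 11.7% in the osteocyte gate, 9.03% in the fibrous gate, 7.76% in the chondrocyte gate, 7.06% in the osteoblast-low gate, 3.91% in the osteoblast-reticular gate, 3.45% in the mural gate and 2.48% in the reticular gate. The chondrocyte, osteoblast-low, osteoblast-reticular, mural and reticular shares all lay below that of the low-count barcodes. A single gene, Gm42418, made up 60.3% of low-count UMIs. It made up 16.8% (chondrocyte) to 35.9% (osteoblast-low) in the stromal, osteoblast-low and osteoblast-reticular gates. This lowers the low-count collagen share relative to theirs, so a gate share above 8.43% does not place that gate above free RNA. Within the blood gates the share was 2.93% in granulocyte-gated nuclei, above the reticular share, 1.74% in erythroid, 0.989% in B-lymphoid and 0.884% in macrophage-gated nuclei.

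A share of nuclei with a UMI shows the same background. After each nucleus was thinned to 500 UMIs, Col1a1 was found in 94.1% to 100% of the nuclei of the 6 stromal gates, against 94.2% of blood-gated nuclei. Col2a1, the type II chain, was found in 76.5% of chondrocyte-gated nuclei (97.1% unthinned, median depth 2002.5 UMIs), against 43.9% of blood-gated nuclei (79.8% unthinned, median depth 1398 UMIs). Detection of either gene thus did not mark a nucleus as a source of it. Col3a1, a chain of soft fibrous tissue, was found after thinning in 90% of fibrous-gated nuclei (100% unthinned, median depth 7818.5 UMIs), against 1.73% of blood-gated nuclei (9.25% unthinned). Col4a1, a basement membrane chain, was found in 57.1% of mural-gated nuclei (89.3% unthinned, median depth 1774 UMIs) and 25.1% of reticular-gated nuclei (54.5% unthinned, median depth 1595 UMIs), against 3.47% of blood-gated nuclei (4.62% unthinned).

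Per nucleus, several bone and cartilage collagens were close between the reticular gate and the blood gates. Col1a1 was at 20.7 UMIs per reticular-gated nucleus and 19.5 per blood-gated nucleus (1.06-fold), Col2a1 at 1.95 and 1.89 (1.03-fold), Col10a1 at 0.896 and 0.855, and Col11a1 at 1.32 and 1.28. Col1a2 was higher in the reticular gate, at 13.3 and 10.7 UMIs per nucleus (1.24-fold, beyond counting error). Col11a2 was lower in the reticular gate, at 0.403 and 0.566 UMIs per nucleus (0.711-fold). Other collagens stood apart from the blood gates: Col4a1 at 1.36 against 0.0578 UMIs per nucleus (23.6-fold), Col4a2 20.1-fold, Col6a2 13.6-fold, Col8a1 7.45-fold, Col27a1 5.62-fold, Col6a1 5.33-fold, Col5a3 4.49-fold and Col3a1 2.39-fold. Over the members with at least 20 UMIs on both sides together, 12 of 22 were at least 2-fold higher per reticular-gated nucleus, where 17.5% of all genes tested were, and the interval held equality for 8.

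The same comparison gave 23 of 23 members in the chondrocyte gate (63.4% of all genes), 26 of 27 in the fibrous gate (60%), 19 of 23 in the osteoblast gate (73.4%), 19 of 23 in the mural gate (26.3%) and 12 of 19 in the osteocyte gate (43.6%). It gave 22 of 25 in the osteoblast-reticular gate (48.6%) and 19 of 26 in the osteoblast-low gate (20%). The osteoblast and fibrous nuclei were deep, with medians of 14898 and 7818.5 UMIs, against 1398 UMIs in the blood gates, and most genes were higher per nucleus there. In the osteoblast gate Col9a2 (0.129 against 0.243 UMIs per nucleus) and Col9a3 (0.548 against 0.347) were the members whose interval held equality.

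**Figure D1:**
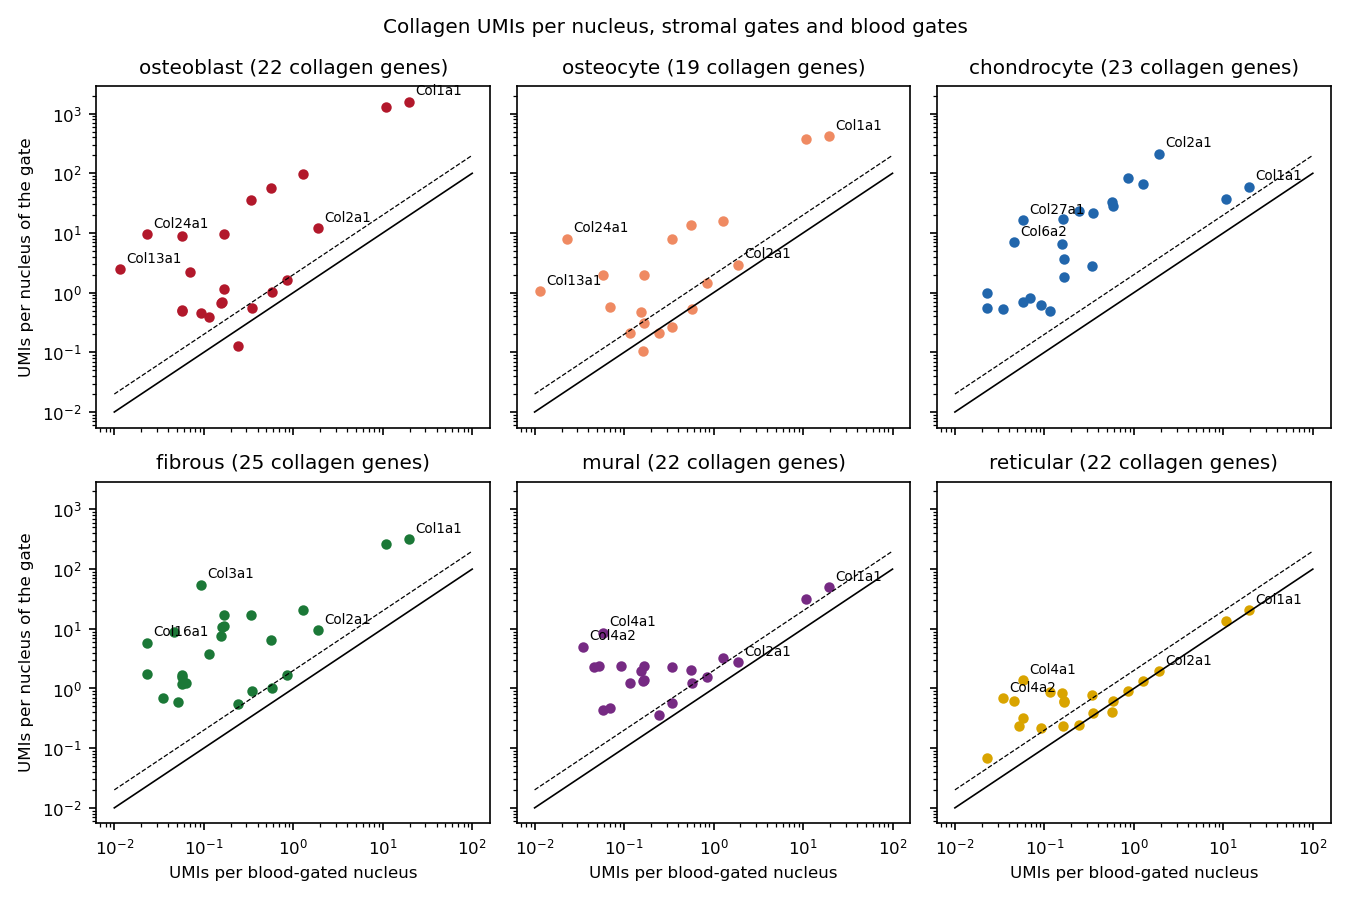
UMIs per nucleus of each collagen gene in 6 stromal gates (y) against blood-gated nuclei (x), both on log axes, for genes with UMIs on both sides and at least 20 in all; the solid line is equality and the dashed lines are 2-fold. In the reticular panel Col1a1, at 20.7 against 19.5 UMIs, sits on the line and Col4a1, at 1.36 against 0.0578 UMIs, far above it.

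Of the 44 members, 42 had a UMI in the kept nuclei and 31 had at least 20 UMIs over the 6 stromal gates. Each gate was compared with the other 5 summed, as a ratio of CPM with 0.5 counts added to both sides, and a member was called at 2-fold. Type I collagen weighs on every such ratio: Col1a1 and Col1a2 were 92.1% of collagen UMIs in the osteoblast gate, 93.1% in the osteocyte gate, 75.2% in the fibrous gate, 71.7% in the reticular gate, 63% in the mural gate and 15.4% in the chondrocyte gate. The osteoblast gate also gave the most UMIs to the sum that the other gates were set against. For ATAC counts the reticular gate gave the most, 7859059, with 1594274 in the chondrocyte gate, the next. RNA and ATAC ratios of a gate were thus set against sums of unlike make-up.

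The osteoblast gate was higher in 8 and lower in 19 of the 31 members (25.8% and 61.3%), where 3.09% of all genes tested were higher and 38.2% lower. The chondrocyte gate was higher in 11 and lower in 14 (all genes 15.3% and 16.7%), and the fibrous gate higher in 11 and lower in 9 (11.8% and 16.3%). These shares of higher members exceeded those of all genes. The osteocyte gate was higher in 2 and lower in 19 (8.26% and 27%), the mural gate higher in 4 and lower in 17 (18.3% and 14%), and the reticular gate higher in 3 and lower in 22 (24.5% and 11.5%), so in these 3 gates the share of higher members was below that of all genes. With a mitochondrial limit of 20%, or none, 6 members were higher in the osteoblast gate.

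The median log2 ratio over the members was −3.62 in the osteoblast gate, −2.63 in the osteocyte gate, −0.28 in the chondrocyte gate, −0.20 in the fibrous gate, −1.10 in the mural gate and −2.35 in the reticular gate, and over all genes −0.73, −0.31, 0.07, 0.03, 0.20 and 0.40. With members at 0 UMIs placed at their bound of 3 counts the medians were −3.34, −2.15, −0.28, −0.20, −0.99 and −1.94. In the osteocyte and mural gates Col8a2 and Col14a1 were at 0 UMIs and too sparse elsewhere for the floor of 3 counts to bound a difference, so these calls carry no fold.

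The members furthest below the other gates were as follows. In the osteoblast gate they were Col9a2 (7.57 CPM and 764 CPM in the other gates, log2 ratio −6.49), Col3a1 (26.5 and 1091 CPM, −5.31) and Col10a1 (96.5 and 2787 CPM, −4.84), with Col8a2 and Col14a1 at 0 UMIs, at least 4.82-fold and 4.36-fold lower. In the osteocyte gate they were Col3a1 and Col5a3 at 0 UMIs (at least 38.4-fold and 4.42-fold lower), Col6a3 (2 UMIs, −5.07, interval −8.44 to −3.53), Col4a1 (2 UMIs, −4.54, −7.91 to −3.00) and Col4a2 (1 UMI, −4.41, −10.30 to −2.51), and Col18a1 was at 0 UMIs (at least 2.15-fold lower). These ratios are relative, and per nucleus the osteoblast gate held 1.65 Col10a1 UMIs, against 0.855 in the blood gates. The 3 tested type VI chains were also lower in both bone gates. In the reticular gate Col15a1, Col13a1 and Col8a2 had 0 UMIs, at least 15.1-fold, 13.8-fold and 3.75-fold lower, and Col24a1 had 2 UMIs (−6.22, −9.59 to −4.68) and Col22a1 3 UMIs (−5.20, −7.70 to −3.86). In the fibrous gate the lowest was Col10a1 (−3.40) and in the mural gate Col2a1 (740 and 5337 CPM, −2.84).

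**Figure D2:**
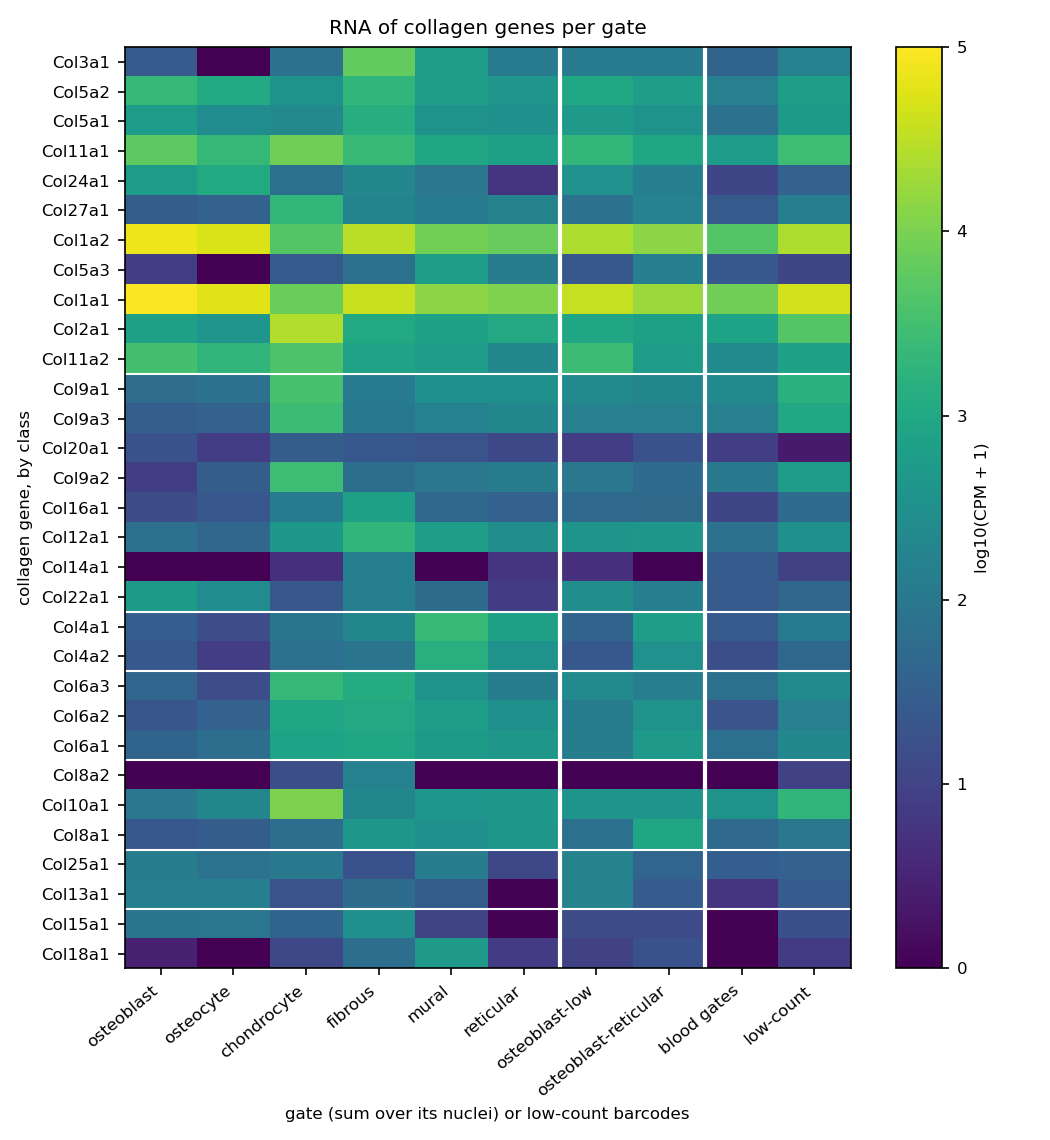
Level of the 31 tested collagen genes (rows, by class) in the 6 stromal gates, the osteoblast-low, osteoblast-reticular and blood gates and the low-count barcodes (columns), coloured by log10 of CPM plus 1. High levels are bright and low levels dark. Type I is bright in all columns, while Col3a1 is at 6399 CPM in the fibrous gate and Col4a1 at 2317 CPM in the mural gate, against 39.7 and 24.8 CPM in the blood gates.

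Type I collagen was concentrated in the bone-forming gates. Col1a1 (ENSMUSG00000001506, chr11:94936224-94953042 of mm10) was at 93472 CPM in the osteoblast gate (interval 92649 to 94300), 57501 CPM in the osteocyte gate, 37235 CPM in the fibrous gate, 36337 CPM in the osteoblast-low gate, 17460 CPM in the osteoblast-reticular gate, 13317 CPM in the mural gate, 10821 CPM in the reticular gate and 7376 CPM in the chondrocyte gate, against 8378 CPM in the blood gates. The log2 ratio of the osteoblast gate to the other gates was 2.23 (2.20 to 2.25) for Col1a1 and 2.27 (2.24 to 2.29) for Col1a2 (chr6:4504814-4541544). All 31 osteoblast-gated nuclei held Col1a1, from 57 to 4863 UMIs with a median of 1262. In CPM the chondrocyte gate lay below the blood gates, although per nucleus it held 59.6 against 19.5 UMIs. Beyond the osteoblast gate, no stromal gate was called higher for a type I chain.

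The balance of both chains differed between gates. The ratio of Col1a1 to Col1a2 UMIs was 1.24 in the osteoblast gate (1.23 to 1.26), 1.12 in the osteocyte gate, 1.21 in the fibrous gate, 1.29 in the osteoblast-reticular gate, 1.52 in the osteoblast-low gate, 1.56 in the reticular gate, 1.58 in the mural gate and 1.60 in the chondrocyte gate, against 1.82 in the blood gates (1.72 to 1.93) and 1.88 in the low-count barcodes. The gates with most type I RNA thus had the lowest ratios, and the blood gates and low-count barcodes the highest. Whether the differences come from free RNA was not tested.

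Chromatin over Col1a1, counted as ATAC counts in peaks over the gene and 3 kb upstream, was at 159 CPM in the osteoblast gate and 53.1 CPM in the other gates, against 20.2 CPM in the blood gates. The osteoblast-low gate had 155 CPM there, close to the osteoblast gate (log2 ratio −0.04, with 6 members higher and 4 lower at 1.5-fold, and 8.45% and 11.3% of all genes), while its Col1a1 RNA was lower (−1.36).

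The peak with the highest ratio in the fibrous gate lay in Col1a2, 32361 bases after the start, at 26.3 CPM in that gate and 3.26 CPM in the other stromal gates, against 0.841 CPM in the blood gates. Its middle 200 bases, chr6:4537076-4537275 on the plus strand of GRCm38.p6 (mm10, sequence from RefSeq), include an exon of Col1a2 and are otherwise intronic. They are shown because they hold 2 matches, in capitals, to the AP-1 motif TGANTCA, which 15.7% of all peak windows of this length held. A match describes letters and is not a site.
Col1a2 fibrous peak: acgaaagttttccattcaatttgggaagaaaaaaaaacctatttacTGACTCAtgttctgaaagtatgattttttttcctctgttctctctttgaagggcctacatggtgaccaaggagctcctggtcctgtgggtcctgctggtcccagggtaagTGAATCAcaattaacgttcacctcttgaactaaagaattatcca

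The cartilage collagens were highest in the chondrocyte gate. Col2a1 (chr15:97975602-98004695) was at 26376 CPM (25772 to 26990) there and 823 CPM in the other stromal gates, with a log2 ratio of 5.0, against 810 CPM in the blood gates. Its FACIT partners of type IX followed, Col9a1 at 3519 and 174 CPM (4.34), Col9a2 at 2852 and 62.1 CPM (5.51) and Col9a3 at 2725 and 105 CPM (4.70). Col27a1, a fibrillar chain of cartilage, was at 2011 and 99.6 CPM (4.33). Each of these 5 genes was at least 49.2-fold higher per chondrocyte-gated nucleus than per blood-gated nucleus. In the other stromal gates Col2a1 was at 400 to 1098 CPM, a range that holds the blood-gate value.

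Col10a1 (chr10:34389981-34397085), the chain of hypertrophic cartilage, was at 10345 CPM in the chondrocyte gate (9968 to 10733) and 263 CPM in the other gates (log2 ratio 5.30), against 367 CPM in the blood gates. Few nuclei carried it. Of the 34 chondrocyte-gated nuclei, 12 with at least 5000 UMIs held 86.7% of the gate's UMIs, and the 3 highest nuclei for each gene held 72.7% of Col10a1 and 40.9% of Col2a1. At least 100 UMIs of Col2a1 were found in 10 nuclei and of Col10a1 in 5, with 4 nuclei past both. Among the 12 deep nuclei Col2a1 exceeded Col10a1 in 10. In 1 of the other 2, Col10a1 was at 390 UMIs and Col2a1 at 33, beside 36 UMIs of Mmp13, the collagenase of late hypertrophic cartilage, and 0 of Sox9, the chondrocyte transcription factor.

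**Figure D3:**
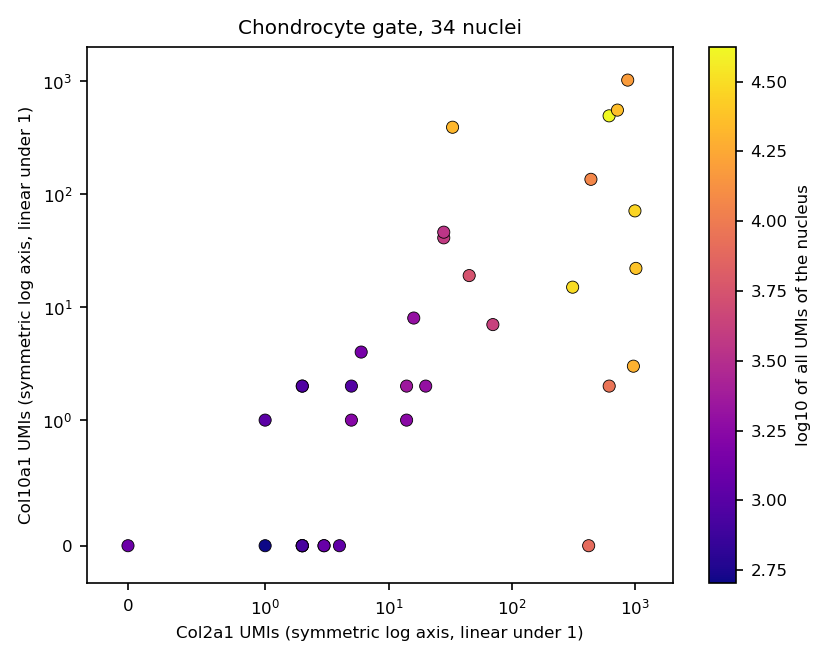
Col10a1 against Col2a1 UMIs in each of the 34 chondrocyte-gated nuclei (points), on axes that are linear near 0 and logarithmic above, coloured by log10 of the nucleus's UMIs. The deep nuclei spread along both axes, with up to 1009 UMIs of Col2a1 and 1019 of Col10a1.

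The chains of type XI were high in both the chondrocyte and the osteoblast gate. Col11a1 was at 8119 CPM in the chondrocyte gate (log2 ratio 1.43) and 5762 CPM in the osteoblast gate (0.96, short of a call), 2446 CPM in the fibrous gate, 2178 CPM in the osteocyte gate, 885 CPM in the mural gate and 691 CPM in the reticular gate, against 548 CPM in the blood gates. Col11a2 was called in both, at 4051 CPM in the chondrocyte gate (1.29) and 3322 CPM in the osteoblast gate (1.19), with 211 CPM in the reticular gate, against 243 CPM in the blood gates. The osteoblast call of Col11a2 was lost with a mitochondrial limit of 20% (0.65) and with none (0.68), and the chondrocyte call with clusters in place of gates (0.66). The ratio of Col11a1 to Col11a2 UMIs was 1.73 in the osteoblast gate and 0.751 in the osteoblast-low gate, against 3.86 in the low-count barcodes. Chromatin over Col11a2 was at 141 CPM in the osteoblast gate and 29.7 CPM in the other gates (2.26).

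Accessibility over most of the cartilage genes was higher in the chondrocyte gate. It was 86.6 CPM there and 11.1 CPM in the other gates over Col9a1 (log2 ratio 2.97), 29.5 and 12.9 CPM over Col9a2 (1.20), 19.4 and 1.67 CPM over Col9a3 (3.53) and 65.2 and 25.2 CPM over Col2a1 (1.38). Col27a1 was not called, at 303 and 217 CPM (0.48). Col10a1 had fewer than 50 ATAC counts and was not tested. Col2a1 differed from its RNA in the osteoblast gate, where the gene had 66.3 CPM of ATAC counts and the other gates 26.6 CPM (1.32), against 10.1 CPM in the blood gates, while its RNA ratio was −3.34. The accessibility call was lost with no mitochondrial limit (0.41) and with peaks within 1 kb of the start (0.58). Per nucleus the osteoblast gate held 11.9 Col2a1 UMIs, against 1.89 in the blood gates. Its median was 6 UMIs and a single nucleus gave 31.4% of the total.

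Of the 75 ATAC counts over Col2a1 in the osteoblast gate, 46 came from 1 peak, 6576 bases after the start, at 40.7 CPM in the osteoblast gate, 23.8 CPM in the chondrocyte gate, 18.8 CPM in the osteocyte gate and 1.40 CPM in the reticular gate, against 1.40 CPM in the blood gates. It was chosen after its values were seen. The middle 200 bases, chr15:97998020-97998219 on the minus strand of GRCm38.p6 (mm10, RefSeq), are intronic, and are shown as the stretch where chromatin and RNA part. They held no match to the 8 motifs searched, so no letter is in capitals.
Col2a1 osteoblast peak: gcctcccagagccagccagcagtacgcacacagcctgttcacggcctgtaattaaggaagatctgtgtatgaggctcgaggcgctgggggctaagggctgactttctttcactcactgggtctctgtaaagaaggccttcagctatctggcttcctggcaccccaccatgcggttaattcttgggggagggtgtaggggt

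A further set of collagens was called higher in a bone gate and not in the chondrocyte gate. Col24a1 (chr3:145292472-145552011), a fibrillar chain expressed in forming bone in mice, was at 1092 CPM in the osteocyte gate (926 to 1280, log2 ratio 2.20), 558 CPM in the osteoblast gate (1.53), 344 CPM in the osteoblast-low gate, 204 CPM in the fibrous gate, 140 CPM in the osteoblast-reticular gate, 96.2 CPM in the mural gate, 69.2 CPM in the chondrocyte gate and 4.53 CPM in the reticular gate, against 9.91 CPM in the blood gates. It was found in 25 of 31 osteoblast-gated and 13 of 19 osteocyte-gated nuclei. A single nucleus gave 26.1% of its osteoblast UMIs and another 32% of its osteocyte UMIs.

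Col22a1, a FACIT of tissue junctions, was at 532 CPM in the osteoblast gate and 67.2 CPM in the other gates (log2 ratio 2.98), against 24.8 CPM in the blood gates, and 28 of 31 nuclei held it. Col13a1, a transmembrane chain, was at 144 and 33.6 CPM (2.09), against 4.96 CPM in the blood gates. It was called in the osteocyte gate as well (1.23) and had 0 UMIs in the reticular gate, at least 13.8-fold below the other gates. Col5a2, a type V chain, had a log2 ratio of 1.55 in the osteoblast gate. Col25a1, another transmembrane chain, had one of 1.32, at 132 CPM in the osteoblast gate, 125 CPM in the mural gate and 102 CPM in the chondrocyte gate. Its call was lost with a mitochondrial limit of 20% (0.35), with none (0.52) and with the other gates given the same weight (0.99). The last, an alternative chosen after seeing the data, also ended the osteoblast call of Col24a1 (0.93). The osteocyte call of Col13a1 was lost with no mitochondrial limit (0.86), with a stricter gate (0.68) and with clusters in place of gates (0.67).

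Chromatin was called higher in the osteoblast gate over 3 of these 5 genes. Over Col13a1 the osteoblast gate had 288 CPM and the other gates 51.1 CPM (log2 ratio 2.5), and the reticular gate had 19.6 CPM, against 23.3 CPM in the blood gates. Over Col22a1 the osteoblast gate had 136 CPM and the other gates 47.7 CPM (1.52), and over Col24a1 217 and 93.2 CPM (1.22). Over Col25a1 (218 and 149 CPM, 0.55) and Col5a2 (57.5 and 41.1 CPM, 0.49) the difference was under the 1.5-fold used to call ATAC counts. In the osteocyte gate the Col24a1 ratio was 0.54 (147 CPM), also not called, and in the mural gate it was 0.61 (152 CPM) and called, although mural Col24a1 RNA was lower than in the other gates (96.2 CPM, log2 ratio −1.68). With a mitochondrial limit of 20% the mural accessibility ratio was −0.18, and with none −0.73. Col13a1 also held the next highest osteoblast peaks, 22176 and 88472 bases after its start, at 36.2 and 2.70 CPM and at 38.9 and 4.05 CPM in the osteoblast gate and the other gates. In the osteocyte gate the highest peaks lay in Col5a1 (35.8 and 5.70 CPM) and Col4a2 (22.6 and 3.77 CPM) and 438 bases before the start of Col11a2 (47.1 and 9.87 CPM).

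The peak with the highest ratio in the osteoblast gate lay in an intron of Col24a1, 55938 bases after the start, with 40 counts (35.4 CPM) there and 1.60 CPM in the other gates (log2 ratio 4.44), against 0 in the blood gates. Its middle 200 bases, chr3:145348311-145348510 on the plus strand of GRCm38.p6 (mm10, RefSeq), are shown as the collagen window most biased to osteoblast-gated nuclei. The RUNX motif TGTGGT, present in 24.6% of all peak windows on either strand, was not among its letters, nor were the other 7 motifs.
Col24a1 osteoblast peak: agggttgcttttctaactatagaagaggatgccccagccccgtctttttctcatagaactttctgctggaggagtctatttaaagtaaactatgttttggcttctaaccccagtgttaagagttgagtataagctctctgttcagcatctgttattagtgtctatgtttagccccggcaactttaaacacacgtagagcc

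Several collagens were called higher in the fibrous gate. Col3a1 (chr1:45311538-45349706), the chain of type III, was at 6399 CPM (6025 to 6789) there and 103 CPM in the other stromal gates (log2 ratio 5.96), against 39.7 CPM in the blood gates. All 20 fibrous-gated nuclei held it, from 1 to 109 UMIs with a median of 65.5. It was at 644 CPM in the mural gate, 115 CPM in the reticular gate, 76.5 CPM in the chondrocyte gate and 26.5 CPM in the osteoblast gate. The osteocyte gate had 0 UMIs, at least 38.4-fold below the other gates.

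FACIT chains, which sit on the surface of fibrils, were higher in the same gate. Col12a1 was at 1956 and 249 CPM (log2 ratio 2.98), Col16a1 at 683 and 43 CPM (3.98) and Col14a1 at 146 and 2.02 CPM (5.98, interval 4.47 to 8.55, from 25 and 3 UMIs). Col12a1 was found in 17 and Col16a1 in 16 of the 20 nuclei, while Col14a1 was in 7, with 48% of its UMIs from 1 nucleus, and at 27.3 CPM in the blood gates. Col8a2, a short chain, was at 158 and 2.69 CPM (5.73) in 8 nuclei, with 44.4% from 1, and Col15a1, a multiplexin, at 321 and 47 CPM (2.77) in 8 nuclei. Col8a1, the partner chain of type VIII, was at 438 CPM (1.30) in 7 nuclei, with 41.3% from 1, and was called higher in the reticular gate too (1.95). Col5a1, the other main type V chain, had a log2 ratio of 1.73 and was at 66.5 times its level per blood-gated nucleus.

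Accessibility over Col3a1 was 70.2 CPM in the fibrous gate and 15.9 CPM in the other gates (log2 ratio 2.15), against 0.56 CPM in the blood gates, and the osteocyte gate had 0 of 262 counts. The next highest fibrous peaks lay 4688 bases after the Col3a1 start (32.2 and 4.51 CPM) and in Col5a1 (21.5 and 3.26 CPM). Over Col16a1 the gene level was 169 and 87.8 CPM (0.95, and 0.43, not called, with no mitochondrial limit) and over Col14a1 82.9 and 37.8 CPM (1.14). Over Col12a1 the fibrous gate was not called (0.29) and the reticular gate was (208 and 129 CPM, 0.69), although Col12a1 RNA was at 310 CPM in the reticular gate and 1956 CPM in the fibrous gate.

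Basement membrane chains marked the mural gate. Col4a1 (chr8:11198423-11312826) was at 2317 CPM (2034 to 2629) there and 251 CPM in the other stromal gates (log2 ratio 3.21), and Col4a2 (chr8:11312805-11449287) at 1356 and 132 CPM (3.36). Per nucleus they were 149-fold and 145-fold above the blood gates. Col18a1, the multiplexin from which endostatin is cut, was at 500 and 11.6 CPM (5.41), from 52 UMIs in 11 nuclei, with 0 UMIs in the blood gates. Col5a3, a further type V chain, was at 644 and 49.5 CPM (3.70) in 14 of 28 nuclei, against 22.3 CPM in the blood gates. Endothelial cells, which also make type IV collagen, passed their own gate in 5 nuclei. These held 13 Col4a1 and 7 Col4a2 UMIs among 16799 UMIs, too few to rank, and were not described further.

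With the endothelial gate left out, the reticular gate ranked next for type IV. Col4a1 was at 713 CPM (637 to 797) and 260 CPM in the other gates (log2 ratio 1.45), and Col4a2 at 365 and 153 CPM (1.26), in an order of mural, reticular, osteoblast-reticular (621 CPM), fibrous (198 CPM), chondrocyte (87.4 CPM), osteoblast-low (37.4 CPM), osteoblast (30.3 CPM) and osteocyte (14.3 CPM) gates for Col4a1, against 24.8 CPM in the blood gates. With each of the other gates given the same weight, an alternative chosen after seeing the data, the reticular ratios were 0.43 and 0.25 and neither was called. Col8a1, the short chain of vessel walls, was the third reticular call, at 451 and 117 CPM (1.95).

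Accessibility over Col4a1 was 482 CPM in the mural gate and 241 CPM in the other gates (log2 ratio 1.0), and over Col4a2 395 and 176 CPM (1.17), against 41.5 and 59.7 CPM in the blood gates. The reticular gate was called over Col4a1 (305 and 183 CPM, 0.74, and 0.08, not called, with peaks within 1 kb of the start) and not over Col4a2 (0.08). Over Col5a3 the mural ratio was 0.77 and the reticular ratio 0.90, and over Col18a1 0.34 and 0.54. Further mural peaks lay in Col4a2 (23.4 and 4.28 CPM) and 56129 bases after the Col4a1 start (21.1 and 4.28 CPM). RNA of Col18a1 thus separated the mural from the reticular gate (500 and 6.79 CPM), while accessibility over the gene (99.6 and 91.7 CPM) did not differ by 1.5-fold.

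Col4a1 and Col4a2 lie head to head, and their annotated starts overlapped by 21 bases (−21 from start to start). The RefSeq promoter window of Col4a1, 250 bases before to 50 after its start, held ATTGG, the reverse of the NF-Y motif CCAAT (37.4% of all promoters), and CCGCCC, the reverse of the GC box GGGCGG (35.7%). Within the gene, the peak with the highest mural ratio lay 50371 bases after the Col4a1 start, at 29.3 CPM in the mural gate and 5.02 CPM in the other gates (log2 ratio 2.56), against 0.561 CPM in the blood gates. Its middle 200 bases, chr8:11262356-11262555 on the minus strand of GRCm38.p6 (mm10, RefSeq), are intronic. They are shown because they hold, in capitals, a match to the EBF motif CCCNNGGGA (4.75% of all peak windows, both strands searched), the motif of factors expressed in stromal and mural cells, and one to AP-1.
Col4a1 mural peak: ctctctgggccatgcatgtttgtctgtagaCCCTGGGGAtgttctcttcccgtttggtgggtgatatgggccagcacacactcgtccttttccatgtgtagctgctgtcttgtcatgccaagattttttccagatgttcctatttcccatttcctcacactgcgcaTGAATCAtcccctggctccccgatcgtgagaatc

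Type VI collagen, assembled from Col6a1, Col6a2 and Col6a3, was called higher in the chondrocyte and fibrous gates and lower in both bone gates, for each of its 3 chains. Col6a3 was at 2116 CPM in the chondrocyte gate (log2 ratio 3.15), 1244 CPM in the fibrous gate (1.41), 365 CPM in the mural gate, 125 CPM in the reticular gate, 41.6 CPM in the osteoblast gate and 14.3 CPM in the osteocyte gate, against 69.4 CPM in the blood gates. Col6a1 was at 794 CPM in the chondrocyte gate (1.37), 870 CPM in the fibrous gate (1.39), 538 CPM in the mural gate and 435 CPM in the reticular gate, against 66.9 CPM in the blood gates, and Col6a2 at 867 (1.57), 1051 (1.76), 625 and 328 CPM, against 19.8 CPM. The osteoblast gate had 39.7 CPM of Col6a1 and 20.8 CPM of Col6a2.

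The chains did not move as one. The ratio of Col6a3 to Col6a1 UMIs was 2.67 in the chondrocyte gate, 1.43 in the fibrous gate, 0.286 in the reticular gate and 0.267 in the osteoblast-reticular gate. Col6a3 was present in all 20 fibrous-gated nuclei and in 16 of 34 chondrocyte-gated nuclei. With no mitochondrial limit the fibrous ratio of Col6a3 was −0.07, that of Col6a2 0.99 and that of Col6a1 0.87, so none of the 3 fibrous calls held there, and with the limit at 20% that of Col6a3 was 0.39. Accessibility over Col6a3 was higher in the chondrocyte gate (128 and 64.7 CPM, 0.99) and the fibrous gate (160 and 64.9 CPM, 1.30, and 0.49, not called, with no mitochondrial limit). The chondrocyte call was lost with the other gates given the same weight (0.4995). Over Col6a2 the fibrous gate had 20.5 and 28.1 CPM (−0.42), the opposite sign to its RNA. It was not called, and its interval (−1.17 to 0.18) holds equality.

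The osteoblast-reticular gate was closer to the reticular than to the osteoblast gate by its markers. Its reticular markers were at 7624 CPM, against 10275 CPM in the reticular gate and 288 CPM in the osteoblast gate. Its osteoblast markers were at 2972 CPM, against 28911 CPM in the osteoblast gate and 1395 CPM in the reticular gate. Low-count barcodes held 2985 CPM of osteoblast markers, so their level in this gate was no higher than in free RNA. Against the reticular gate, the osteoblast-reticular gate was higher in 5 of 25 members tested and lower in 1 (4.98% and 3.26% of all genes). The 5 were Col24a1 (66 and 2 UMIs, log2 ratio 4.64, interval 3.04 to 8.02), Col22a1 (66 and 3 UMIs, 4.15, 2.75 to 6.68), Col25a1 (20 and 5 UMIs, 1.80, 0.45 to 3.67), Col11a2 (1.46) and Col8a1 (1.03). Col9a2 was lower in CPM (−1.21) but not per nucleus, with 26 UMIs in 96 osteoblast-reticular nuclei and 57 in 231 reticular nuclei. The median depths were 4042 and 1595 UMIs. Col24a1 came from 14 of 96 nuclei, with 36.4% of UMIs from 1, and Col22a1 from 10, with 45.5% from 1. Col8a1 was at 924 CPM in this gate, 451 CPM in the reticular gate and 22.7 CPM in the osteoblast gate, against 49.6 CPM in the blood gates, so it was not between its neighbours. Col4a1 was at 621 CPM, near the reticular 713 CPM.

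Whether such a nucleus was 1 cell or a mixture of RNA from 2 was not tested. Accessibility over Col8a1 and Col24a1 differed less from the reticular gate than their RNA, with log2 ratios of 0.01 and 0.31. The other genes called higher in RNA are not given here. Over Col1a1 and Col13a1, which were not among the genes called in RNA, the ratios were 0.45 and 0.91. In accessibility 5 members were higher and 1 lower (6.51% and 2.9% of all genes). Against the osteoblast gate 15 of 27 members were higher and 10 lower (44.3% and 4.7% of all genes).

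The osteoblast-low gate, against the osteoblast gate, was higher in 13 of 27 members and lower in 5 (13.6% and 4.03% of all genes). The median depths were 2581.5 and 14898 UMIs, so a higher CPM was not always more UMIs per nucleus. Col10a1 (322 UMIs in 250 nuclei and 51 in 31) and Col9a1 (205 and 32 UMIs) were higher in CPM only. Col9a2 (79 and 4 UMIs) was higher per nucleus as well. The members lower in CPM were Col15a1 (log2 ratio −2.64), Col1a2 (−1.65), Col11a1 (−1.50), Col1a1 (−1.36) and Col5a2 (−1.07). The osteocyte gate, against the osteoblast gate, had few calls, with Col10a1 higher (1.06), Col11a1 (−1.40), Col5a1 (−1.06) and Col6a3 (2 and 22 UMIs, −1.25, interval −4.68 to 0.48, which holds equality) lower among 19 members tested (18.5% and 10.4% of all genes). Per nucleus Col10a1 was not higher, with 28 UMIs in 19 osteocyte-gated nuclei and 51 in 31 osteoblast-gated nuclei.

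**Figure D4:**
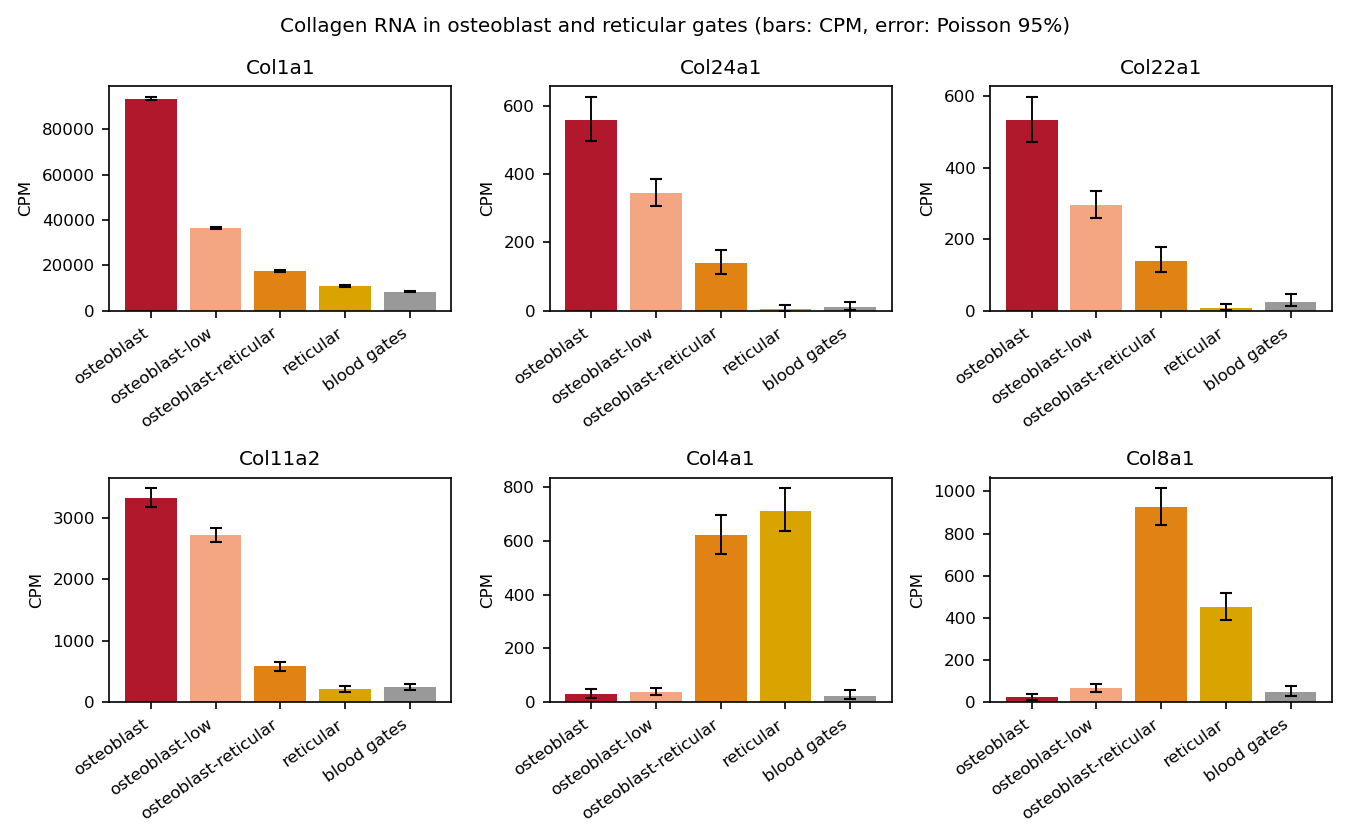
Level in CPM, with exact Poisson 95% intervals, of 6 collagen genes (panels) in the osteoblast, osteoblast-low, osteoblast-reticular, reticular and blood gates (bars, each axis from 0). Col1a1 and Col24a1 are highest in the osteoblast gate, Col4a1 in the reticular gate and Col8a1 in the osteoblast-reticular gate, at 924 CPM.

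Accessibility was set beside RNA for the members called in RNA that had at least 50 ATAC counts. Of those called higher in RNA, the ATAC ratio had the same sign for 8 of 8 in the osteoblast gate (90.9% of all genes called higher there), 2 of 2 in the osteocyte gate (73.2%), 10 of 10 in the chondrocyte gate (63.3%), 10 of 11 in the fibrous gate (72.5%), 4 of 4 in the mural gate (58.4%) and 3 of 3 in the reticular gate (68.5%), Col6a2 being the exception. ATAC counts themselves passed 1.5-fold in the same direction for 6 of 8 (61.3% of all such genes), 1 of 2 (34.3%), 7 of 10 (20.4%), 8 of 11 (27.2%), 3 of 4 (10.1%) and 2 of 3 (21.2%) in the same order. Of members called lower, the sign was shared by 13 of 18 (61.6% of all genes called lower), 15 of 18 (60.3%), 10 of 14 (75.1%), 6 of 8 (59.5%), 11 of 16 (63.4%) and 19 of 21 (83.4%). ATAC was called lower as well for 11 of 18 (20.9%), 13 of 18 (30.3%), 4 of 14 (24.9%), 4 of 8 (26.9%), 2 of 16 (20.1%) and 12 of 21 (42.9%). In the chondrocyte and mural gates most members that were lower in RNA were thus not called lower in accessibility. The same held for most of all genes called lower in RNA there, so it is not particular to collagens. Both readouts came from the same nuclei.

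On their own, ATAC counts over the 43 members tested gave, at 1.5-fold, 12 higher and 13 lower in the osteoblast gate (16% and 18.7% of all genes), 9 and 16 in the osteocyte gate (19.1% and 23.7%), 14 and 7 in the chondrocyte gate (14.6% and 13.8%), 17 and 9 in the fibrous gate (18.3% and 16.7%), 8 and 6 in the mural gate (10.7% and 19.6%) and 5 and 20 in the reticular gate (11.6% and 17.2%). There were 746 peaks over the members, 204 with at least 50 counts in the stromal gates, and 40 members had a peak within 1 kb of the start. Peaks within 1 kb of the start alone gave, over 26 members, 9 higher and 10 lower in the osteoblast gate (12.7% and 15.2%), 5 and 11 in the osteocyte gate (19.4% and 19.8%), 4 and 9 in the chondrocyte gate (8.93% and 15.4%), 10 and 3 in the fibrous gate (19.2% and 11.9%), 5 and 5 in the mural gate (9.49% and 20.6%) and 2 and 10 in the reticular gate (8.4% and 10.9%). The members thus stood furthest from all genes in the reticular gate over the whole gene, where 20 of 43 were lower.

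**Figure D5:**
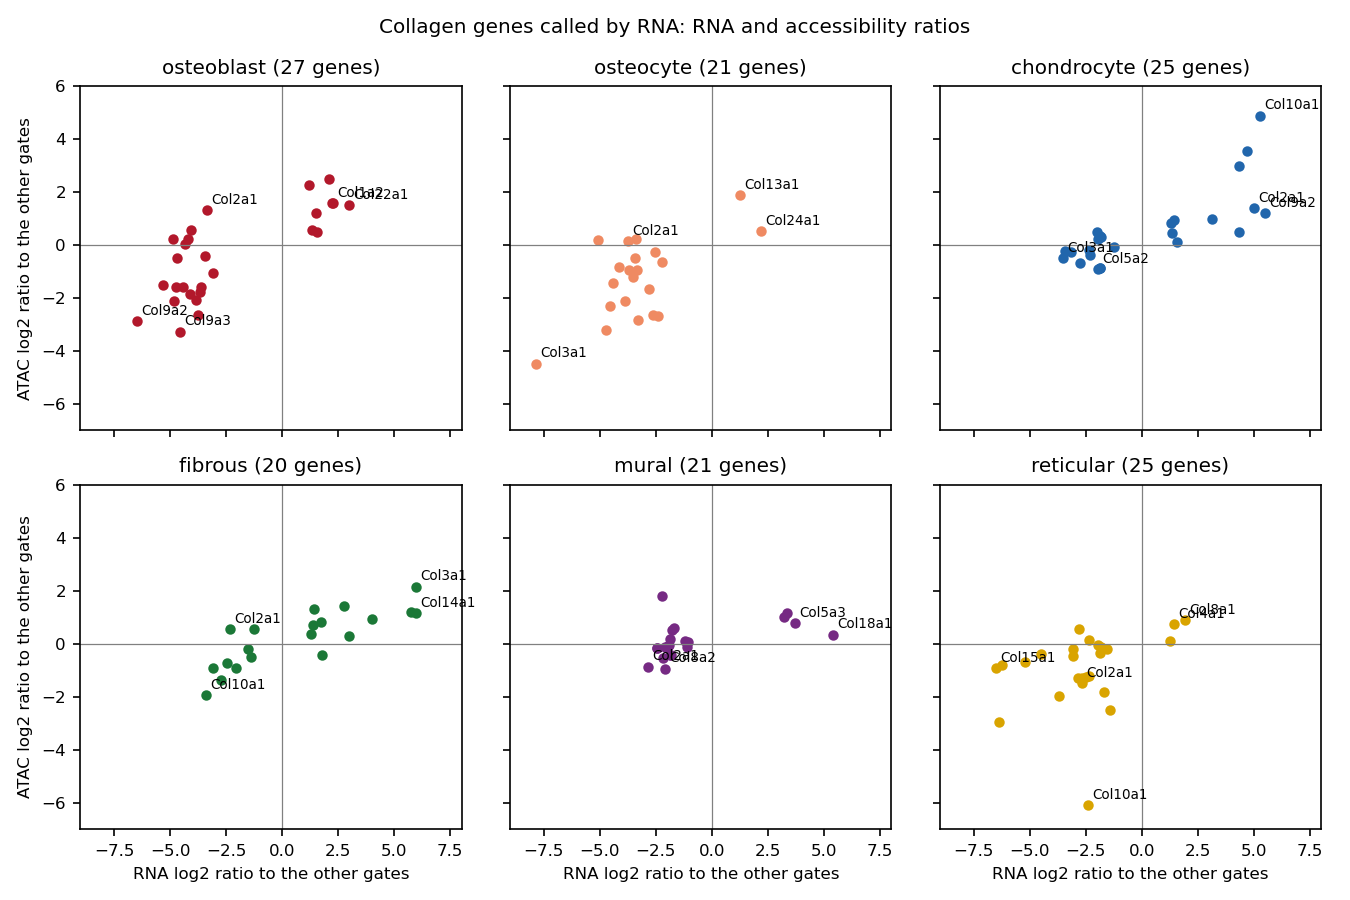
Log2 ratio of RNA (x) and of ATAC counts over the gene and 3 kb upstream (y) for the collagen genes called in RNA, Col10a1 and others under 50 ATAC counts included, each of 6 stromal gates (panels) against the other 5. Genes to the right of 0 lie above 0 in ATAC in all panels except Col6a2, at −0.42, in the fibrous gate, where the interval holds equality.

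Open chromatin without RNA was also seen. Col26a1, a chain of the group outside the main classes, had 1 UMI in the chondrocyte gate and 2 in all nuclei, but 114 CPM of ATAC counts over the gene in that gate and 28.2 CPM in the other gates (log2 ratio 2.01), against 59.5 CPM in the blood gates. The 3 peaks with the highest chondrocyte ratio all lay in Col26a1. The first, 32616 bases after the start, had 20.7 CPM in the chondrocyte gate and 1.93 CPM in the other gates (3.41), against 0 in the blood gates. Its middle 200 bases, chr5:136850494-136850693 on the minus strand of GRCm38.p6 (mm10, RefSeq), are intronic and are shown for that contrast, with an AP-1 match in capitals.
Col26a1 chondrocyte peak: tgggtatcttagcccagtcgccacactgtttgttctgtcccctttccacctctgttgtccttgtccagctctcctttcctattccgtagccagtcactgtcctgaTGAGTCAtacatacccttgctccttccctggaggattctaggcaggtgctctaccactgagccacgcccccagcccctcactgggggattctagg

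The highest reticular peak lay in Col23a1, a transmembrane chain with 29 UMIs in all nuclei, 6 of them in the reticular gate. It had 53 counts there (6.74 CPM) and 0 in the other stromal gates, against 0.561 CPM in the blood gates. Peaks in Col25a1 (8.65 and 0.389 CPM) and Col4a1 (8.27 and 0.584 CPM) followed. RNA of Col25a1 was at 11.3 CPM in the reticular gate, below the 29.7 CPM of the blood gates.

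The remaining members gave little RNA. Col4a3 and Col17a1 had 0 UMIs in nuclei, which allows up to 3 counts among 4025855 UMIs. Col4a4 and Col28a1 had 1 UMI each, Col6a4 had 2, Col4a6 7, Col7a1, the anchoring fibril chain, 8, Col19a1, Col6a5 and Col6a6 10 each, and Col4a5 26. Of the Col19a1 UMIs, 9 were in 3 mural-gated nuclei, and of the Col4a5 UMIs 7 were in 2 mural-gated nuclei. Col20a1 was tested and stayed at 7.14 to 29.1 CPM in the 6 stromal gates, against 7.44 CPM in the blood gates.

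Genes that modify, fold and crosslink collagen chains (34 listed, 31 tested) were followed beside them. In the chondrocyte gate 10 were higher and 5 lower, led by Loxl4, a lysyl oxidase of crosslinking (log2 ratio 5.69), Pcolce2, an enhancer of propeptide removal (3.44), and Colgalt2, a collagen galactosyltransferase (3.0). The prolyl hydroxylase subunits P4ha2 (1.78) and P4hb (1.72) and the folding isomerase Ppib (1.69) were higher too, and Adamts2, the protease that trims the type I propeptide, was lower (−3.41). In the osteoblast gate 5 were higher and 7 lower, the lowest being P3h2 (2 UMIs, −5.15, −8.53 to −3.60), Loxl4 (−3.74), Pcolce2 (−2.95) and Loxl1 (−2.85), and the higher ones being Sparc, a collagen-binding matrix protein (1.64), Lox (1.34), Pcolce (1.28), Bmp1, the C-propeptide protease (1.23), and Creb3l1, a transcription factor of secretion (1.18). Of all genes, 15.3% were higher and 16.7% lower in the chondrocyte gate, and 3.09% and 38.2% in the osteoblast gate.

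The fibrous gate had 5 higher and 2 lower, among them P3h4 (1.42), Pcolce2 (1.29) and Plod1, a lysyl hydroxylase (1.21), with Loxl4 lower (2 UMIs, −2.89, −6.26 to −1.33) and Adamts14 at 0 UMIs. The osteocyte gate had 1 higher, Adamts14 (2.58), and 13 lower, with P3h2 and Loxl4 at 0 UMIs and Pcolce2 and Loxl1 at 1 and 2. The mural gate had 0 higher and 11 lower, among them Lox (−2.19) and Creb3l1 (3 UMIs, −2.30, −4.81 to −0.96), with Pcolce2 and Adamts3 at 0 UMIs. The reticular gate had 3 higher, Loxl1 (2.72), Adamts2 (1.15) and the prolyl 3-hydroxylase P3h2 (1.13), and 13 lower, with Sparc at −2.72, Pcolce2 at −3.09 and Loxl4 at −4.05 (3 UMIs, −6.56 to −2.69). Of all genes, 11.8% were higher and 16.3% lower in the fibrous gate, 8.26% and 27% in the osteocyte gate, 18.3% and 14% in the mural gate and 24.5% and 11.5% in the reticular gate.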

How the data were processed

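The authors deposited raw counts for all barcodes, RNA UMIs per gene and ATAC counts per peak. Per the submitters' processing notes they used Cell Ranger ARC 2.0.0 and mm10, to which transgene contigs had been added. Members and lists were chosen with earlier results of these data known. Thresholds of the gates and of the low-count barcodes, the 1.5-fold ATAC call and the thinning depth of 500 UMIs were set after seeing the data.

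The minimum per nucleus was 500 UMIs and 1000 ATAC counts, with a mitochondrial limit of 10%. Scrublet, in scanpy 1.11.5, called 5 of 1427 nuclei (0.350%) and had not worked, so the 16 highest scores were removed, at 0.8% per 1000 nuclei. A gate required 5 marker UMIs from 2 markers, 2 times the mean rate of all nuclei and 5 times the free RNA expected, and the best likelihood. The low requirement was 5 UMIs from 3 markers of a list and 5 times the free RNA expected, without the limit on the mean rate. The osteoblast-reticular gate asked for it in both the osteoblast and the reticular list.

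UMIs and ATAC counts were summed per gate with Python 3.11.15, numpy 2.4.6, pandas 2.3.3 and scipy 1.17.1. Members needed 20 UMIs or 50 ATAC counts over both sides. Intervals are at 95%. The ratio script was tested on simulated data. Gene models were GENCODE mouse release 21 on mm10, with 96.5% of starts within 1 kb of the deposited ones. Promoters came from RefSeq for 35 members. Col12a1, Col14a1, Col1a1, Col22a1, Col26a1, Col2a1, Col4a3, Col5a2 and Col9a3 were not matched. Motifs were RUNX TGTGGT, SOX AACAAT, AP-1 TGANTCA, NF-Y CCAAT, EBF CCCNNGGGA, TEAD GGAATG, the long NFI motif and the GC box GGGCGG, searched on both strands.

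Named in full were Col1a1, Col1a2, Col2a1, Col3a1, Col4a1, Col4a2, Col6a1, Col6a2, Col6a3, Col10a1 and Col11a1, the 5 members, 4 synthesis genes and 3 peaks most changed in each gate, and every member by its UMIs. Other genes named were chosen after their values were seen. The separate deposited peak list was not used. Alternatives changed the mitochondrial limit, UMI minimum, gates, doublets, free RNA, scaling, weights, counting window and left-out nuclei.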

Additional observations from a re-analysis of the deposited data

How the results depend on the processing

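No paired analysis was possible because there was 1 library of each kind. The number of nuclei in the 6 stromal gates was 363, and 742 with a mitochondrial limit of 20%, 1087 with no limit and 552 with Leiden clusters made without collagens in place of gates. In the osteoblast gate 6 members in place of 8 were higher with the 20% limit and with none. Members called higher were 1 in place of 2 in the osteocyte gate and 5 in place of 3 in the reticular gate with no limit. With clusters they were 17 higher and 9 lower in place of 11 and 14 in the chondrocyte gate, and 5 higher in the reticular gate. With the other gates given the same weight, an alternative chosen after seeing the data, 1 was higher in the reticular gate. Over all stromal gates the summed collagen level was 99042 CPM, and 96290 CPM with the 20% limit, 86561 with none, 98179 with at least 1000 UMIs per nucleus, 91995 with a stricter gate, 85659 with clusters and 166395 with CPM taken without mitochondrial genes, Gm42418 and collagens. Chosen after seeing the data, leaving out the nucleus of most UMIs in each gate gave 98253 CPM and subtracting the mean of blood-gated nuclei 90840 CPM.

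Among the named genes, the log2 ratio reversed for Col3a1 in the chondrocyte gate with clusters, to 3.73, where the fibrous nuclei were part of the chondrocyte cluster, and for Col6a3 in the fibrous gate with no limit, to −0.0745. With peaks within 1 kb of the start the accessibility ratio reversed to −0.39 for Col11a1 in the chondrocyte gate and to 0.31 for Col22a1 in the reticular gate. The cause was not tested for these. Over all members called, the sign turned for 5 RNA ratios with clusters (Col3a1, Col14a1, Col18a1 and Col5a1 in the chondrocyte gate and Col9a1 in the mural gate) and 1 with no limit. It turned for 2 ATAC ratios with the 20% limit, 4 with no limit, 3 with clusters, 5 with peaks within 1 kb of the start and 3 with the same weight. Of 139 RNA calls, the same call was made for 132 with the 20% limit, 129 with no limit, 137 with a stricter gate, 105 of 119 with clusters, 135 with the same weight and 139 with blood-gated means subtracted. ATAC calls were less stable: of 136, the same call was made for 109 with the 20% limit, 102 with no limit, 124 of 131 with a stricter gate, 96 of 110 with clusters, 60 of 77 with peaks within 1 kb of the start and 116 with the same weight. No cluster was named fibrous, so none of the fibrous calls could be compared with clusters. Every value rests on 1 library, on 19 to 34 nuclei in each of 5 gates, and on the minority of candidates under the mitochondrial limit. A difference between animals cannot be measured here.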
